A study of Mus musculus with 6 samples.

Results

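The genes described here make, break down and bind hyaluronan, or encode lubricin: the hyaluronan synthases Has1, Has2 and Has3, the hyaluronan-degrading proteins Hyal1, Hyal2 and Cemip, the receptor Cd44, the hyaluronan-binding proteins Vcan and Tnfaip6, and Prg4, which encodes lubricin. They were chosen by name from 10 symbols, and 9 of the 10 had a probe set that the platform annotation gives to that gene alone, out of 22180 genes measured in this way. Each of the 9 had 1 such probe set. The probe sets for Hyal1 carry the symbols of 2 genes, so Hyal1 was not analysed here. Expression was measured on 6 whole-transcript arrays of fibroblast-like synoviocytes (the fibroblasts that line the joint) grown from knee synovium of C57BL6 mice. Cells of passages 4 to 8 were infected for 2 h at a multiplicity of infection of 800 and then cultured for 24 h. The 3 Mock arrays hold cells given an empty adenovirus, and the 3 Ad-Epas1 arrays hold cells given an adenovirus carrying Epas1, the gene of the oxygen-regulated transcription factor HIF-2alpha. Cells of both groups thus received an adenovirus, no uninfected cells were analysed here, and the Epas1 level is that of a delivered gene rather than of cells kept at low oxygen. The labels call the replicates biological without naming separate animals or cultures, so part of the spread behind the p-values may be technical.

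Hyaluronan is a long, unbranched sugar chain that synthases in the plasma membrane build from UDP-glucuronic acid and UDP-N-acetylglucosamine and push out of the cell. In the joint, lining fibroblasts release it into the synovial fluid together with lubricin, a mucin-like glycoprotein that coats cartilage and lowers friction at its surface. Hyaluronan is cut outside cells and in lysosomes, held at the surface by CD44, and built into the matrix by proteins that bind or cross-link it.

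Epas1 itself, the check of the labels, stood at 8.67, 8.71 and 8.51 on Mock replicates 1, 2 and 3 and at 13.14, 13.15 and 13.11 on the Ad-Epas1 replicates (log2 expression). It was high on the 3 arrays labelled Ad-Epas1 and on no other. The arrays had medians between 6.77 and 6.84 over all probe sets. Markers of macrophages were present on 5 arrays and low on Ad-Epas1 replicate 3. The summed level of the 14 measured markers lay between 15.29 and 15.57 in Mock and between 11.73 and 15.42 in Ad-Epas1 (log2), and their median on Ad-Epas1 replicate 3 was -3.85 from the Mock mean, against -0.02 and -0.20 on Ad-Epas1 replicates 1 and 2. Per the labels, under 1% of the cells were CD14+ and over 90% CD90+ by flow cytometry. Cd14 stood at 10.42, 9.99 and 10.14 in Mock and at 11.92, 11.40 and 8.62 in Ad-Epas1. Thy1, which encodes CD90, stood at 11.17, 11.06 and 11.06 in Mock and at 10.40, 10.60 and 10.98 in Ad-Epas1. In such bulk RNA, fewer cells of a type and less RNA per cell cannot be told apart. Mock replicate 1 was the Mock array nearest to the Ad-Epas1 mean for 61.0% of the genes that passed the test, and for 4 of the 5 members that did.

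In Ad-Epas1 cells the transcripts of 2 synthases moved in opposite directions, the hyaluronan-degrading Cemip fell most, and lubricin rose. Of the 9 members, 3 rose (Has1, Vcan and Prg4), 2 fell (Has2 and Cemip) and 4 did not pass the test (Has3, Hyal2, Cd44 and Tnfaip6). The test was limma over all 22180 genes with Benjamini-Hochberg adjustment and a threshold of 0.05. Among all genes, 6.57% rose and 9.75% fell by the same rule (16.3% in either direction). The groups did not overlap for 8 of the 9 members, Has3 being the exception, against 39.7% of all genes. The median log2 fold change of the 9 was -0.09, and that of all genes tested 0.05. Without Mock replicate 2, 1 member rose and 1 fell. Without Mock replicate 3, limma called no rise (3 members at an unadjusted p under 0.05) and 1 fall, and the counts were 1 and 1 without Ad-Epas1 replicate 2 and 2 and 1 without Ad-Epas1 replicate 1. Over all genes, leaving out Mock replicate 2 or 3 also lowered the share called, to 1.92% or 1.88% risen and to 3.44% fallen for each. Dropping Ad-Epas1 array 1 lowered it to 3.76% risen and 6.10% fallen, and dropping array 2 of that group to 2.65% and 4.17%. Without Ad-Epas1 replicate 3, the array low in macrophage markers, 2 members rose (Has1 and Prg4) and 3 fell (Has2, Cemip and Tnfaip6), while over all genes the shares grew to 10.3% risen and 13.98% fallen.

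**Figure D1:**
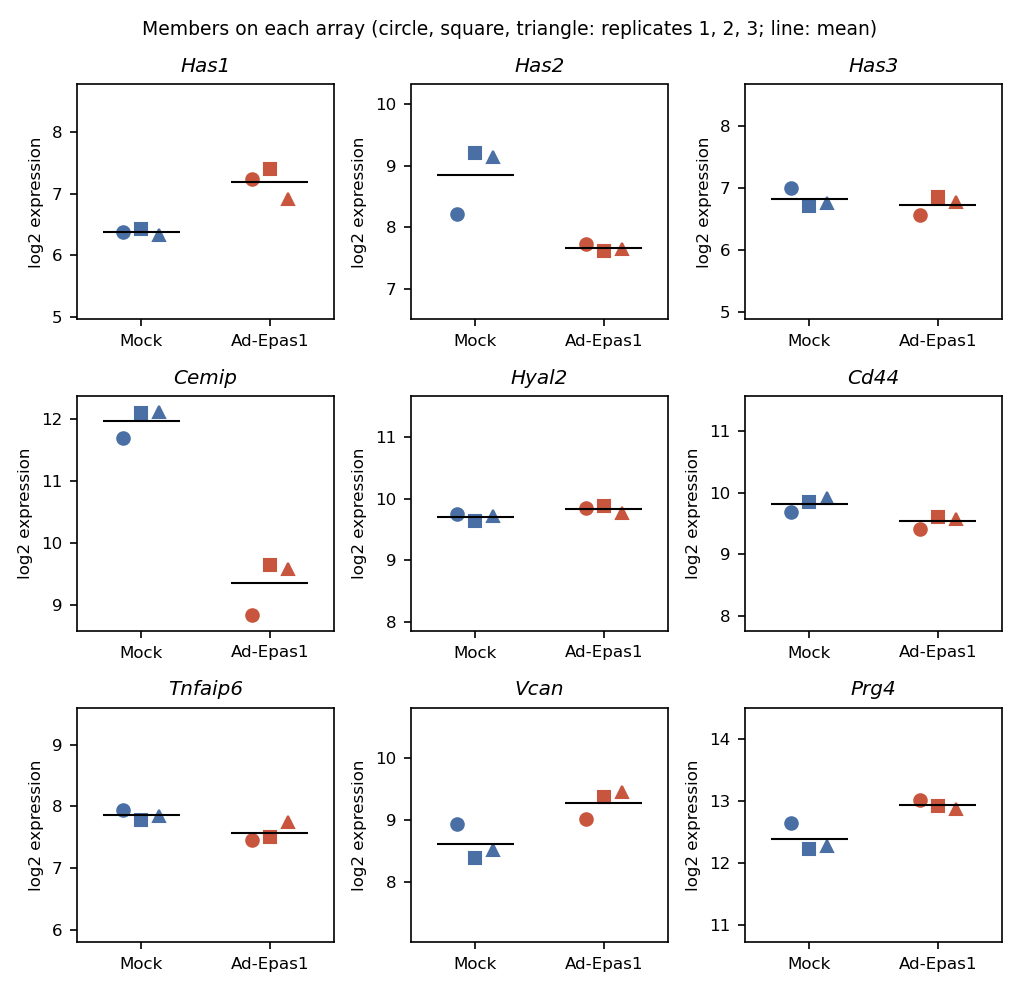
Log2 expression of the 9 measured members on each array, with Mock in blue and Ad-Epas1 in red, symbols for replicates and a line at the mean of 3. Every panel spans the same log2 distance, and Cemip shows the widest gap. Mock replicate 1 (circle) is the Mock array closest to the Ad-Epas1 mean for Has2, Vcan, Prg4, Cemip, Hyal2 and Cd44.

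The sequences just before the transcription start are given for the changed members with an entry in the RefSeq promoter table, Has1, Vcan and Cemip, and for Cd44, whose window alone held a core of the HIF-binding motif. The table (build GRCm38.p6) held 7 of the 10 members. Each sequence is the 250 bases upstream of the start, read 5′ to 3′ on the gene's strand, which is the minus strand for all 4. The HIF core was searched as ACGTG or GCGTG on both strands. The others searched were the cAMP response element TGACGTCA, which reads the same on both strands, the AP-1 site TGAGTCA on both strands and the TATA box TATAAA on the gene's strand, and these 3 were chosen with the sequences in view. Capitals mark every match.
Has1, chr17:17855189-17855438: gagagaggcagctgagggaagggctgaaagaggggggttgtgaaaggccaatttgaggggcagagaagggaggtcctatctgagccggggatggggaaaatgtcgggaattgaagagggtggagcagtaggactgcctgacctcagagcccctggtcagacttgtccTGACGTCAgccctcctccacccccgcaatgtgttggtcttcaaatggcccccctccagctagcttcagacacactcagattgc
Vcan, chr13:89742513-89742762: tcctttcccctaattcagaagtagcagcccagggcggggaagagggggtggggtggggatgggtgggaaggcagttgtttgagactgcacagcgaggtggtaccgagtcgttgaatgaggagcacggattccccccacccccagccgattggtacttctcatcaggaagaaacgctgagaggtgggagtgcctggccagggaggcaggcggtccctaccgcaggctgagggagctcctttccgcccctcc
Cemip, chr7:84086506-84086755: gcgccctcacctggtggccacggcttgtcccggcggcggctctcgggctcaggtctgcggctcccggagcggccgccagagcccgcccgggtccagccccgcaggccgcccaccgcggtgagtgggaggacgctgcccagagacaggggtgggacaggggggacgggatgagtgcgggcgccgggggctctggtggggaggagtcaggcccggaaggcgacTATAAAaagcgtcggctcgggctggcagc
Cd44, chr2:102901666-102901915: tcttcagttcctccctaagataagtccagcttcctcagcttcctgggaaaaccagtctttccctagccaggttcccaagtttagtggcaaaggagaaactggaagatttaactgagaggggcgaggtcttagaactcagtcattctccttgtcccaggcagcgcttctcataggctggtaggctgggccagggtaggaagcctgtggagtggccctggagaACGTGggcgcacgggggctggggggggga
The HIF core was found at 1 position before Cd44, beginning 29 bases upstream of the start, and at none before the other 6 members. It occurs in 38.6% of all 32851 promoter windows of this length. Among the 21263 windows of protein-coding genes, 44.0% hold it, 1.92% a cAMP response element, 4.06% an AP-1 site and 7.67% a TATA box. The Has1 window held 1 cAMP response element, beginning 83 bases upstream, which 1.55% of all windows hold. The Cemip window held 1 TATA box, beginning 29 bases upstream, which 7.59% of all windows hold. The window of Tnfaip6 (not printed) held 1 AP-1 site, found in 4.46% of all windows, and the Vcan window held none of the motifs. These are matches of letters in 1 window, not binding sites.

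Has1, 1 of the synthases, was low in Mock and rose. It stood at 6.38, 6.43 and 6.33 on the Mock arrays and at 7.23, 7.40 and 6.91 on the Ad-Epas1 arrays. All Ad-Epas1 arrays were above all Mock arrays, with replicate 3 the lowest of them. The rise was 1.74-fold (log2 fold change 0.80, SE 0.13, 95% interval 0.50 to 1.10, limma, adjusted p = 0.0097). Its Mock level lay below 6.62, the level under which 95% of 1394 olfactory and vomeronasal receptor genes lay, so the fold is not exact. The rise was 0.94 when Ad-Epas1 replicate 3 was left out, and it missed the threshold without Mock replicate 3 (adjusted p = 0.052).

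Has2, the synthase that mouse embryos need for heart development, went the other way. It stood at 8.22, 9.21 and 9.13 on Mock replicates 1, 2 and 3 and at 7.73, 7.61 and 7.65 on the Ad-Epas1 arrays. The Ad-Epas1 arrays lay close together below all Mock arrays, and Mock replicate 1 lay between them and the other Mock arrays. Has2 was 2.28-fold lower in Ad-Epas1 (log2 fold change -1.19, SE 0.25, 95% interval -1.80 to -0.58, limma, adjusted p = 0.024). The difference was -1.51 without Mock replicate 1 and -1.18 without Ad-Epas1 replicate 3. Has2 did not pass with Mock array 2 or 3, or Ad-Epas1 array 1 or 2, left out (adjusted p reaching 0.096). Another probe set that the annotation shares between Has2 and its antisense gene Has2os was not used.

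Has3, the third synthase, had overlapping groups. It stood at 7.00, 6.71 and 6.76 in Mock and at 6.56, 6.85 and 6.78 in Ad-Epas1. The difference was -0.09 with a 95% interval from -0.36 to 0.18 (limma, adjusted p = 0.60). Its level lay near 6.62, under which 95% of the olfactory and vomeronasal receptor genes lay, and there a change is measured less well.

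**Figure D2:**
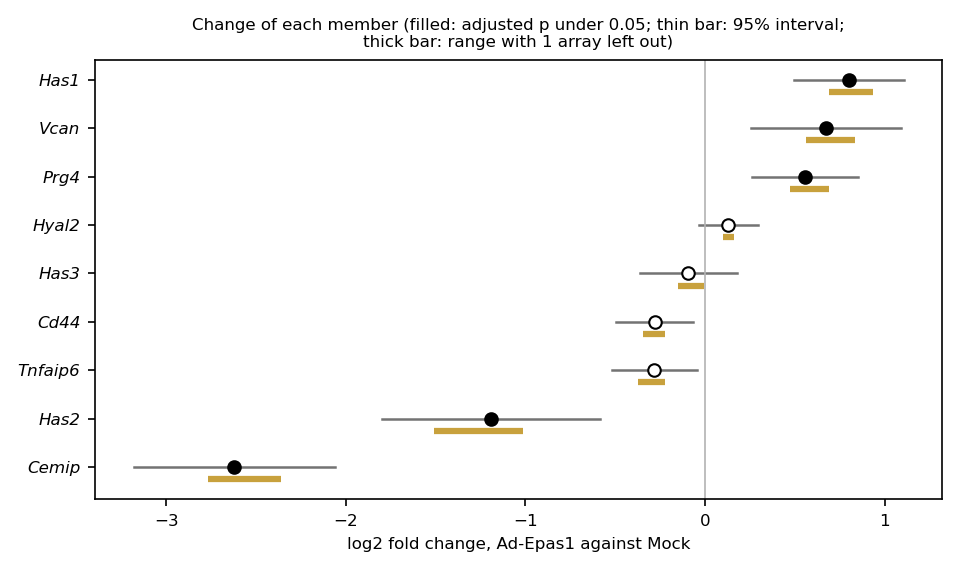
Log2 fold change of each member, Ad-Epas1 against Mock, with its unadjusted 95% interval (thin bar) and the range of values with 1 of the 6 arrays left out (thick bar); filled points passed the adjusted threshold of 0.05. Cemip at -2.62 and Has2 at -1.19 lie left of 0, and Has1, Vcan and Prg4 lie between 0.55 and 0.80.

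Among the proteins that cut hyaluronan, Cemip fell and Hyal2 did not pass. Cemip encodes a hyaluronan-binding protein that human skin and synovial fibroblasts need to depolymerise hyaluronan. It stood at 11.70, 12.11 and 12.12 in Mock and at 8.83, 9.64 and 9.59 in Ad-Epas1. The groups lay far apart, with Ad-Epas1 replicate 1 the lowest. Cemip was 6.15-fold lower (log2 fold change -2.62, SE 0.24, 95% interval -3.18 to -2.06, limma, adjusted p = 0.0018). It was called with any 1 array left out, at -2.76 to -2.36 and with adjusted p up to 0.016, and stood at -2.74 without Ad-Epas1 replicate 3. Hyal2, a membrane-anchored hyaluronidase, stood at 9.76, 9.64 and 9.71 in Mock and at 9.84, 9.88 and 9.78 in Ad-Epas1. Its arrays were a little higher in Ad-Epas1 without overlap, by 0.13 (95% interval -0.03 to 0.29, limma, adjusted p = 0.24). As for Has2, another probe set that the annotation gives to several symbols, Hyal2 among them, was not used.

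The receptor and the cross-linker were slightly lower in Ad-Epas1 and did not pass. Cd44, the main cell-surface receptor of hyaluronan, stood at 9.69, 9.85 and 9.91 in Mock and at 9.42, 9.61 and 9.57 in Ad-Epas1. The difference was -0.28 (unadjusted 95% interval -0.49 to -0.07, limma, adjusted p = 0.078). It did not pass with any 1 array left out, but passed with array weights (-0.27, limma, adjusted p = 0.024) and with Mock replicate 1 and Ad-Epas1 replicate 3 left out together (-0.36, adjusted p = 0.038). Macrophages express Cd44 as well, and the part of the macrophage markers in its level was not tested. Tnfaip6 encodes TSG-6, which moves protein chains from inter-alpha-inhibitor onto hyaluronan. It stood at 7.94, 7.77 and 7.84 in Mock and at 7.46, 7.51 and 7.75 in Ad-Epas1, where replicate 3 came close to the Mock arrays. The difference was -0.28 (limma, adjusted p = 0.10). Without Ad-Epas1 replicate 3 it was -0.37 and passed (limma, adjusted p = 0.018).

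Vcan, which encodes versican, a large proteoglycan that binds hyaluronan in the matrix, was higher in Ad-Epas1. It stood at 8.93, 8.39 and 8.51 in Mock and at 9.01, 9.38 and 9.46 in Ad-Epas1. The gap between Mock replicate 1 and Ad-Epas1 replicate 1 was small, and the other arrays were farther apart. The rise was 1.59-fold (log2 fold change 0.67, SE 0.18, 95% interval 0.25 to 1.09, limma, adjusted p = 0.045). It lay just inside the threshold, and leaving out array 2 or 3 of either group ended the call (adjusted p reaching 0.15, and 0.064 without Ad-Epas1 replicate 3), as did the replicate number as a block (limma, adjusted p = 0.094).

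Prg4, the lubricin gene and a marker of the synovial lining, was strongly expressed on every array and rose. It stood at 12.65, 12.22 and 12.28 in Mock and at 13.01, 12.92 and 12.87 in Ad-Epas1. The Ad-Epas1 arrays lay close together above all Mock arrays, and Mock replicate 1 was the highest Mock array. The rise was 1.47-fold (log2 fold change 0.55, SE 0.12, 95% interval 0.26 to 0.85, limma, adjusted p = 0.028), and 0.59 without Ad-Epas1 replicate 3. It did not pass when Mock array 2 or 3 or Ad-Epas1 array 1 or 2 was left out (adjusted p reaching 0.11).

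Around the members, 80 further genes of hyaluronan supply, breakdown, binding and signalling, of lubricin and of the lining were listed, and 77 were measured. Of these, 16 rose, 9 fell and 52 did not pass, against 6.57% risen and 9.75% fallen over all genes, and their median was 0.13 against 0.05. With Mock replicate 2 left out 10 rose and 3 fell, with Mock replicate 3 left out 11 and 3, with Ad-Epas1 replicate 2 left out 10 and 4, and with Ad-Epas1 replicate 3 left out 23 and 11. The shares over all genes moved with them, to 2.65% risen and 4.17% fallen without Ad-Epas1 replicate 2, and to the values given above for the other 3 settings.

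Most of the enzymes that make the sugar precursors of hyaluronan rose. Of 7 measured, 5 rose and 2 did not pass, with a median of 0.70, and none fell in limma (0 at an unadjusted p under 0.05). Ugp2, which makes UDP-glucose, stood at 10.59, 10.57 and 10.59 in Mock and at 12.09, 12.30 and 11.98 in Ad-Epas1. It rose 2.91-fold (log2 fold change 1.54, SE 0.09, limma, adjusted p = 5.6e-04). Ugdh, which oxidises UDP-glucose to UDP-glucuronic acid, stood at 11.54, 11.34 and 11.35 in Mock and at 12.48, 12.66 and 12.66 in Ad-Epas1. It rose 2.29-fold (log2 fold change 1.19, SE 0.09, limma, adjusted p = 9.8e-04). Both kept their call with any 1 array left out. On the hexosamine branch, which leads to UDP-N-acetylglucosamine, Gfpt2 rose by 1.36 (SE 0.20, limma, adjusted p = 0.0068) and was also called with any 1 array left out. Gfpt1 (0.70, adjusted p = 0.014) and Gnpnat1 (0.65, adjusted p = 0.046), named after their values were seen, rose too. Gfpt1 was not called when Mock array 2 or 3 or Ad-Epas1 array 2 was left out, and Gnpnat1 passed over all 6 arrays and without Ad-Epas1 replicate 3 only. Uap1 (0.10, adjusted p = 0.70) and Pgm3 (0.15, adjusted p = 0.21), likewise named after the fact, did not pass. These enzymes also feed glycogen, glycoproteins and other glycosaminoglycans.

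**Figure D3:**
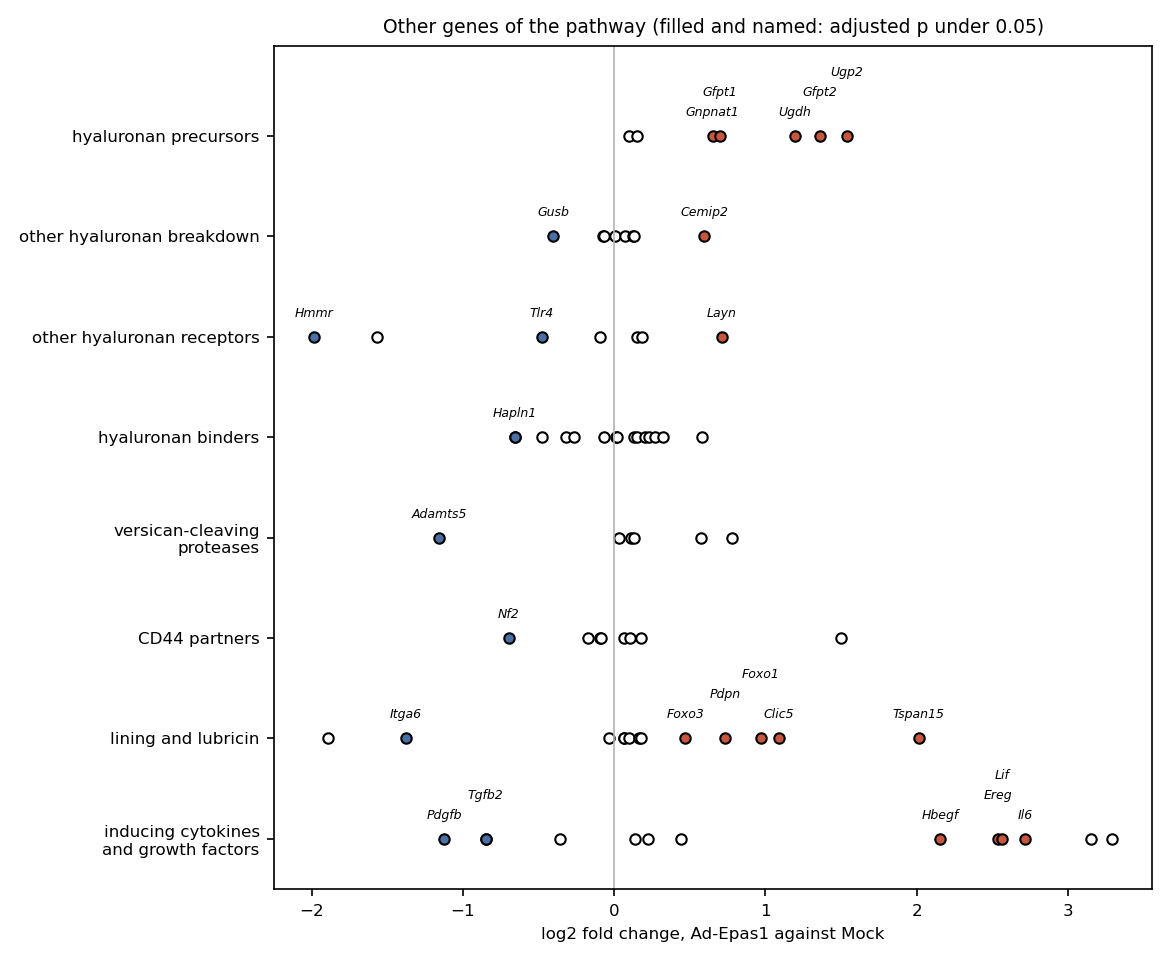
Log2 fold change, Ad-Epas1 against Mock, of the 77 measured genes around the members, 1 row per list; filled points with names passed the adjusted threshold of 0.05 (red higher, blue lower) and open points did not. In the row of precursor enzymes the 5 filled points lie right of 0, and in the rows of binders, proteases and CD44 partners the only filled point in each lies left of 0.

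Breakdown and reception of hyaluronan changed in single genes. Of 8 measured further hyaluronidases and lysosomal glycosidases, 1 rose, 1 fell and 6 did not pass (median 0.04). Hyal4, Hyal5, Hyal6 and Spam1 lay under 6.62 on every array. This is the level under which 95% of the olfactory and vomeronasal receptor genes lay. Hyal3 lay close to it. A change in these genes, named after their values were seen, could not be measured well. Cemip2, the membrane-bound relative of Cemip, stood at 8.67, 8.43 and 8.52 in Mock and at 9.23, 9.23 and 8.94 in Ad-Epas1. It rose by 0.60 (SE 0.11, limma, adjusted p = 0.015), opposite in sign to Cemip. Gusb, the lysosomal beta-glucuronidase, fell by 0.40 (limma, adjusted p = 0.027). Cemip2 was not called when Mock array 2 or 3 or Ad-Epas1 array 2 was left out, and Gusb passed over all 6 arrays and without Ad-Epas1 replicate 3 only. Of 7 measured further receptors, 1 rose, 2 fell and 4 did not pass (median -0.09). Among those 4, Stab2 lay under 6.62 on every array. Layn, which encodes the membrane receptor layilin, rose by 0.71 (SE 0.10, limma, adjusted p = 0.0063). Hmmr, which encodes a hyaluronan receptor that also works on the mitotic spindle, stood at 7.26, 8.02 and 8.13 in Mock and at 5.74, 5.75 and 5.97 in Ad-Epas1. It was lower by a log2 fold change of -1.98 (SE 0.23, limma, adjusted p = 0.0035), with an Ad-Epas1 level under the 6.62 of the receptor genes used for scale. Tlr4, an innate immune receptor reported to sense hyaluronan fragments, fell by 0.48 (limma, adjusted p = 0.019). It was not called when Mock array 2 or 3 or Ad-Epas1 array 1 or 2 was left out. Stab1, a scavenger receptor of macrophages, named after its values were seen, stood at 10.67, 9.85 and 9.91 in Mock and at 9.62, 9.26 and 6.86 in Ad-Epas1, low where the macrophage markers were low, and did not pass (adjusted p = 0.18).

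Of 15 measured genes of hyaluronan-binding proteins, none rose in limma (4 at an unadjusted p under 0.05), 1 fell and 14 did not pass (median 0.02). Over all genes, 16.3% passed in either direction. Bcan, Hapln2, Itih3, Itih4 and Ambp, named after their values were seen, had means under 6.62 in both groups. A change in them could not be measured well. The fallen gene was Hapln1, a link protein that fastens proteoglycans to hyaluronan, at -0.66 (SE 0.13, limma, adjusted p = 0.018), not called when Mock array 2 or 3 or Ad-Epas1 array 1 was left out. Without Ad-Epas1 replicate 3, Hapln4 also rose (0.75), and Itih2 (-1.02) and Itih5 (-0.49) also fell; these 3 were named after their values were seen. Itih2, which encodes a heavy chain of the inter-alpha-inhibitor that TSG-6 uses, stood at 10.23, 10.36 and 10.41 in Mock and at 9.26, 9.37 and 10.40 in Ad-Epas1. Among 6 measured proteases that cleave versican and aggrecan, none rose in limma (1 at an unadjusted p under 0.05) and 1 fell (median 0.12). This was Adamts5, at -1.16 (SE 0.20, limma, adjusted p = 0.013), not called when Mock array 2 or 3 or Ad-Epas1 array 2 was left out. Adamts4 and Adamts9, named after their values were seen, rose by 1.09 and 0.99 without Ad-Epas1 replicate 3 but not over all arrays (adjusted p = 0.12 and 0.28). Of 8 measured partners and sheddases of CD44, none rose in limma (2 at an unadjusted p under 0.05) and 1 fell (median -0.01). Nf2, which encodes the cytoskeletal linker merlin, was at -0.70 (SE 0.13, limma, adjusted p = 0.016), and was not called when Mock array 2 or 3 or Ad-Epas1 array 2 was left out. Mmp9, a CD44-docking gelatinase named after its values were seen, rose by 2.04 without Ad-Epas1 replicate 3.

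Beside Prg4, 13 genes of the synovial lining and of lubricin control were measured. Of these, 5 rose, 1 fell and 7 did not pass (median 0.16). Not passing were Creb5 (-0.03, limma, adjusted p = 0.97), Htra4 (0.16, adjusted p = 0.67), Cd55 (0.06, adjusted p = 0.89) and Col22a1 (0.18, adjusted p = 0.12). Ctss (-1.89, adjusted p = 0.43, low on Ad-Epas1 replicate 3 only), Ctsg (0.10, adjusted p = 0.46) and Elane (0.07, adjusted p = 0.51) did not pass either. These 7 were named after their values were seen. Cd55, Ctsg and Elane had means under 6.62 in both groups. Tspan15, a tetraspanin found in lining fibroblasts of mice, stood at 7.71, 7.91 and 7.89 in Mock and at 9.33, 9.68 and 10.56 in Ad-Epas1. It rose 4.04-fold (log2 fold change 2.01, SE 0.29, limma, adjusted p = 0.0071). Clic5, a chloride channel family gene of lining cells, rose by 1.09 (SE 0.20, limma, adjusted p = 0.014) from a Mock mean of 6.46 under the 6.62 of the olfactory and vomeronasal receptor genes, so this size is not exact. Foxo1, a transcription factor that promotes Prg4 expression in mouse cartilage, rose by 0.97 (SE 0.07, limma, adjusted p = 9.3e-04). Pdpn (0.73) and Foxo3 (0.47), named after their values were seen, also rose. The gene of this list that fell was Itga6, a laminin-binding integrin subunit. Itga6 stood at 9.80, 9.91 and 9.93 in Mock and at 8.92, 8.91 and 7.67 in Ad-Epas1. It was lower by a log2 fold change of -1.38 (limma, adjusted p = 0.034), and by -0.96 without Ad-Epas1 replicate 3 (adjusted p = 5.1e-04). Tspan15, Foxo1 and Pdpn were called with any 1 array left out. Clic5 was not called without Mock replicate 2 or Ad-Epas1 replicate 2, Foxo3 when Mock array 2 or 3 or Ad-Epas1 array 2 was left out, and Itga6 when any Mock array or Ad-Epas1 array 2 was.

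Cytokines and growth factors were listed because several of them, such as interleukin-1, TNF and TGF-beta, induce Has genes or Tnfaip6 in fibroblasts. Of 13 measured, 4 rose, 2 fell and 7 did not pass (median 0.44). Among those that passed, the 3 largest rises were those of Il6 (2.72, limma, adjusted p = 0.032), Lif (2.56, adjusted p = 9.8e-04) and Ereg, which encodes the EGF-receptor ligand epiregulin (2.54, SE 0.16, adjusted p = 6.7e-04). Pdgfb, a platelet-derived growth factor gene, was at -1.12 (SE 0.15, adjusted p = 0.0056) and Tgfb2 at -0.85 (SE 0.11, adjusted p = 0.0056). Lif, Ereg, Pdgfb and Tgfb2 were called with any 1 array left out. Il6 was not called when Mock array 2 or 3 or Ad-Epas1 array 1 or 2 was left out, and its rise was 3.52 without Mock replicate 1. Without Ad-Epas1 replicate 3, 7 of these genes rose, among them Il1a and Il1b, named after their values were seen. Il1b stood at 12.68 and 12.20 on Ad-Epas1 replicates 1 and 2 but at 5.54 on replicate 3. In Mock it stood at 8.57, 6.06 and 6.34, and Il1a at 8.47, 5.65 and 5.80, with replicate 1 the highest for both. Over all arrays the difference of 3.15 for Il1b and that of 3.29 for Il1a did not pass (limma, adjusted p = 0.29 and 0.26).

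**Figure D4:**
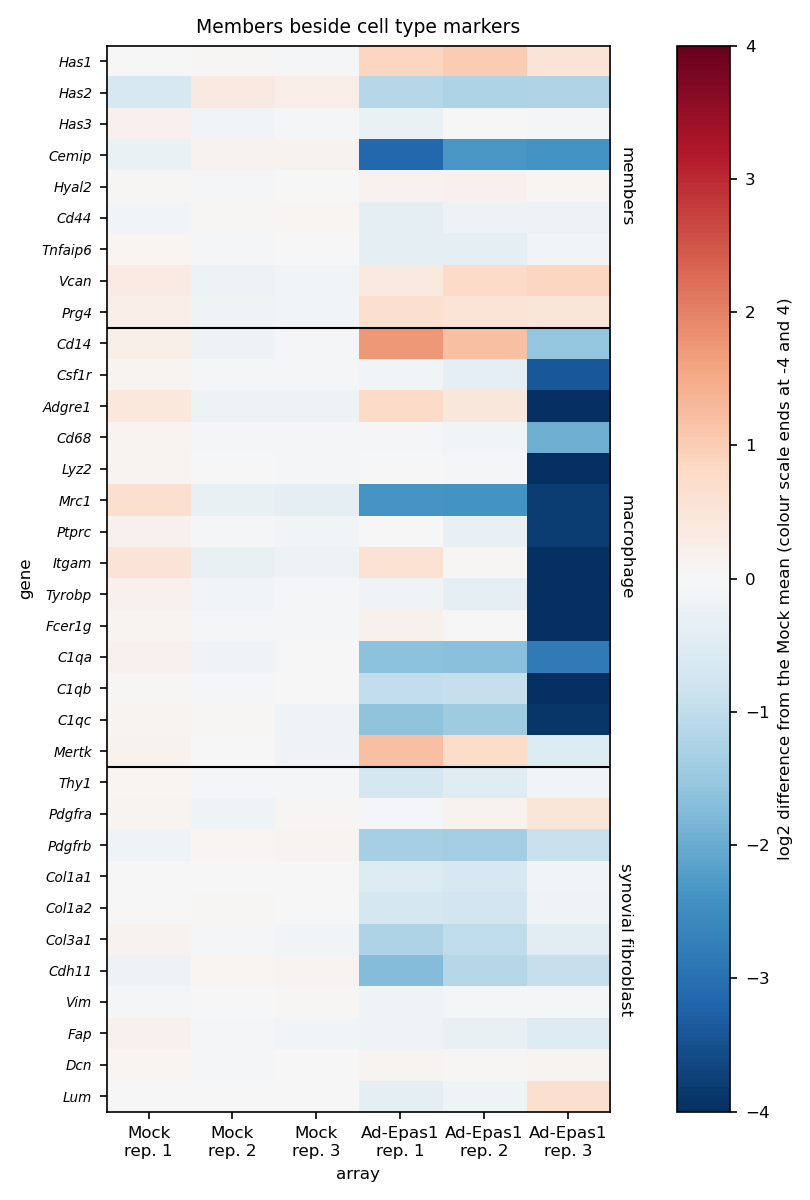
Difference of each array from the Mock mean (log2, colour) for the 9 members, 14 macrophage markers and 11 markers of synovial fibroblasts; colours beyond -4 or 4 are drawn at the end of the scale. On Ad-Epas1 replicate 3 the macrophage markers are lowest, with a median of -3.85, while the members keep the sign they have on replicates 1 and 2, save for Has3, whose sign varies.

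The profiles of Cemip and Has2, the members with the widest range over the 6 arrays (3.29 and 1.60), were compared with those of all other genes by the root-mean-square difference between log2 values, each centred on its own mean. Nearest to Cemip were Arhgap20 (0.14), Prr11 (0.17) and Prc1, which encodes a microtubule-bundling protein of dividing cells (0.18). Nearest to Has2 were Tmtc1 (0.06), Map2, which encodes a microtubule-associated protein (0.09), and Dio3os (0.10). Tmtc1 stood at 8.14, 8.97 and 8.96 in Mock and at 7.52, 7.53 and 7.50 in Ad-Epas1, with Mock replicate 1 between the groups as for Has2. These distances describe 6 arrays of 2 groups and take in the difference between the groups.

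**Figure D5:**
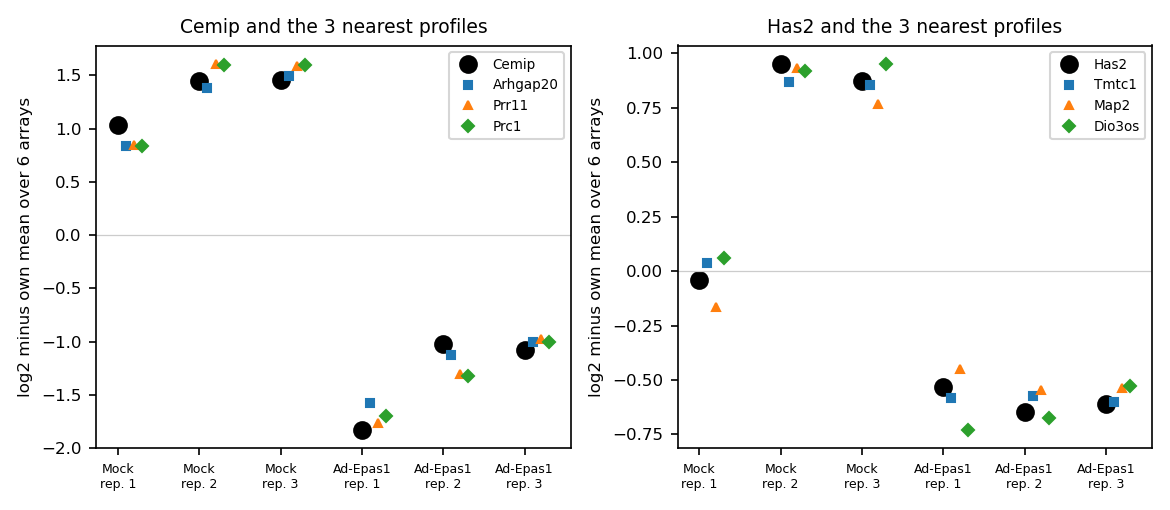
Log2 expression minus the gene's own mean over the 6 arrays for Cemip (left) and Has2 (right), each with the 3 genes of smallest root-mean-square difference, by array. In the right panel Mock replicate 1 lies near 0 for all 4 genes, between the other Mock arrays and the Ad-Epas1 arrays.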

How the data were processed

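Total RNA (300 ng per array) was measured on 6 Affymetrix arrays, grouped by sample title. The authors deposited log2 expression values per probe set, which the submitters' processing notes credit to RMA and Affymetrix Expression Console 1.3.1; those notes name no genome build, and the coordinates printed are those of the RefSeq promoter table. RMA equalises the distributions of the arrays, so a change shared by most genes is invisible, and it compresses large folds. Of 41345 probe sets, 23521 had 1 symbol, 1814 several and 16010 none; a gene with several probe sets was represented by the one of highest mean, with no filter on level, which left 22180 genes. Entrez identifiers of 23328 probe sets matched RefSeq and changed 0 symbols. The table held 0 columns beyond those of the 6 samples.

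Groups were compared by limma 3.58.1 in R 4.3.3 (lmFit, eBayes, two-sided, Benjamini-Hochberg over all genes, threshold 0.05), after a check on simulated data. SE is the moderated error of the log2 fold change, and intervals are 95% per gene. An exact permutation test of 3 against 3 cannot go below 0.1, and the number of arrays limits the precision. The members and lists were chosen with earlier results of these data known. Named genes were the members, Epas1, up to 3 rises and 3 falls per list by size, the nearest profiles of 2 members, and marker lists; others are marked. Listed genes not measured by a probe set of 1 symbol were not analysed here. Alternatives were leaving out each array, the replicate number as a block, median centring, a filter on level, another variance prior, array weights and the mean over probe sets, and, after seeing the data, leaving out Mock replicate 1 and Ad-Epas1 replicate 3 together.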

Additional observations from a re-analysis of the deposited data

How the results depend on the processing

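The counts of risen and fallen members (3 and 2) ranged from 0 to 3 and from 1 to 3 with 1 array left out, and those of the other listed genes (16 and 9) from 10 to 23 and from 3 to 11. With array weights, 4 members rose and 4 fell, and 29 and 12 other genes, while over all genes 17.0% rose and 18.2% fell. With Mock replicate 1 and Ad-Epas1 replicate 3 left out together, 3 members rose and 4 fell, and 27 and 11 other genes, with 11.8% and 15.2% over all genes. The members gained were Hyal2, Cd44 and Tnfaip6 with array weights, and Cd44 and Tnfaip6 with the 2 arrays left out. Has3 was at 0.026 with array weights, against -0.09. Median centring and the other variance prior changed no call among the members. The mean over probe sets is no check of the members, since each had 1 probe set and so kept its values. The filter on level left Has1 and Has3 without a value. Whether replicate numbers pair the arrays could not be settled with 3 arrays per group. Same-numbered deviations from the group means correlated at 0.34, -0.19 and 0.21, and 3 of 6 arrays correlated best with their own number. The replicate block lowered the SE of some members (Cemip, 0.11 against 0.24) and raised that of others (Vcan, 0.20 against 0.18). With the replicate block, 2 members rose and 2 fell, and 17 and 9 other genes, with 5.14% and 8.87% over all genes. Vcan missed the threshold in that setting (limma, adjusted p = 0.094). Genes near or under 6.62, the level under which 95% of the olfactory and vomeronasal receptor genes lay, are measured least well. Has1 in Mock is such a case.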

Other observations

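Some markers of the cells themselves also changed. Over all genes, 6.57% rose and 9.75% fell by the same test, and 10.3% and 13.98% without Ad-Epas1 replicate 3. Of 11 measured markers of synovial fibroblasts, 3 fell: Cdh11, a cadherin of synovial fibroblasts, at -1.26 (SE 0.21, limma, adjusted p = 0.011), Pdgfrb at -1.20 (SE 0.15, adjusted p = 0.0044) and the collagen gene Col3a1 at -0.89 (SE 0.20, adjusted p = 0.029). Of 14 measured macrophage markers, 3 fell: Mrc1, the mannose receptor gene (-2.84, adjusted p = 0.0094), and the complement genes C1qc (-2.31, adjusted p = 0.049) and C1qa (-2.05, adjusted p = 0.0089). Without Ad-Epas1 replicate 3, the array low in macrophage markers, these stood at -2.36, -1.51 and -1.65 and passed (adjusted p up to 0.0022). In the same setting C1qb also fell (-0.95, adjusted p = 5.1e-04), while Cd14 (1.48, adjusted p = 0.0025) and Mertk (0.98, adjusted p = 0.0056) rose. Among 5 measured markers of smooth muscle and pericytes, Acta2 (-0.96) and Cnn1 (-0.99) fell, and among 7 of chondrocytes Col2a1 fell by 0.47. Pdgfrb, Mrc1 and C1qa were called with any 1 array left out. Cdh11, Acta2 and Cnn1 were not called without Mock replicate 2 or 3, nor Acta2 and Cnn1 without Ad-Epas1 replicate 2, nor Cnn1 without Ad-Epas1 replicate 1. Col3a1, C1qc and Col2a1 were called over all arrays and without Ad-Epas1 replicate 3 only. By limma, 0 of the 7 endothelial, 4 adipocyte, 4 lymphocyte and 6 mast cell and neutrophil markers passed (3, 1, 0 and 0 at an unadjusted p under 0.05). In these lists 3, 1, 3 and 4 markers lay under 6.62 on every array. With Ad-Epas1 replicate 3 left out, Pecam1 (0.48), Tek (0.89) and Vwf (0.32) of the endothelial list, Fabp4 (1.42) of the adipocyte list and S100a8 (2.14) of the mast cell and neutrophil list rose, and Thy1 (-0.60), Col1a1 (-0.59) and Col1a2 (-0.73) of the fibroblast list fell. Fabp4 also rose without Mock replicate 1. These genes were named after their values were seen.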
